A study of Homo sapiens with 6 samples.

Results

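The genes described here are HSF1, the master regulator of the cytosolic heat shock response, and 9 chaperones and co-chaperones of that response: HSPA1A, HSPA1B, HSPA8, HSPH1, HSP90AA1, HSP90AB1, HSPB1, DNAJB1 and BAG3. They were chosen by symbol, as a readout of protein folding stress apart from the endoplasmic reticulum (ER). All 10 were found among the 29476 genes of the count table, and all 10 were among the 15615 genes with enough reads to be tested. Polyadenylated RNA of A549 cells, an established human lung adenocarcinoma line, was sequenced after siRNA transfection. Cells given a nontargeting siRNA (siCtrl, 3 libraries, whose genotype field reads control plasmid) were compared with cells given 1 siRNA against the RNA helicase DDX17 (siDDX17, 3 libraries). The labels name no animal, donor or date, and the study's methods call the libraries biological replicates. A harvest 48 h after transfection is given for RT-qPCR only.

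The heat shock response is the cell's answer to unfolded proteins in the cytosol and nucleus. HSF1 is normally held inactive by chaperones, and when these are occupied by unfolded clients it forms trimers that bind inverted repeats of the letters GAA, called heat shock elements, in front of chaperone genes. The HSP70 proteins bind exposed hydrophobic stretches of a client in cycles of ATP hydrolysis, J proteins such as DNAJB1 deliver the client, and exchange factors such as BAG3 and HSPH1 release the nucleotide. HSP90 proteins act later, on kinases, steroid receptors and other clients that are nearly folded. HSPA8 and HSP90AB1 are made in unstressed cells, whereas HSPA1A, HSPA1B and HSP90AA1 are the classical inducible forms.

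The libraries held between 30658136 and 39182371 counted reads. DDX17, the target of the siRNA, fell from 177 to 206 CPM in siCtrl to 30.4 to 32.1 CPM in siDDX17, where CPM is the read count scaled to a common library size with TMM factors. Of 7 markers of A549 and epithelial cells 6 were above 1 CPM in every library, and EPCAM was between 0.738 and 2.28 CPM. Summed, these markers were at 13501 to 15132 CPM in siCtrl and 11586 to 12309 CPM in siDDX17. Of 3 alveolar type II and 3 endothelial markers in the table, all were under 1 CPM in each library. The 3 immune markers in the table, of which CD14 held most reads and PTPRC was at most at 0.0591 CPM, summed to 22.0 to 29.5 CPM in siCtrl and 30.1 to 30.3 CPM in siDDX17. The 4 fibroblast markers, all but COL1A1 under 1 CPM, summed to 2.95 to 3.90 and 2.80 to 3.24 CPM. Their part in the results was not tested. One control library, siCtrl 1, stood apart: the biological coefficient of variation over all tested genes was 0.0754 with all 6 libraries and 0.0472 without it. The main values of the 10 genes are therefore given with and without it.

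With all 6 libraries, the heat shock genes were not called as a group in the DDX17 knockdown cells. A gene was taken as called where its adjusted p lay under 0.05 (edgeR's quasi-likelihood test, adjusted over all tested genes). HSP90AA1 rose and BAG3 fell, and the other 8 genes, HSF1 among them, did not pass the test. That is 1 of 10 called higher, against 24.5% of all tested genes, and 1 of 10 called lower, against 24.3% of all tested genes. None of the 10 was called higher when an absolute log2 fold change over 1 was also required, which is near the 4.65% of all tested genes that were. None was called lower with this limit either, for which the share over all genes is not given here. The median log2 fold change of the 10 genes was 0.12 with all libraries, 0.01 without siCtrl 1 and 0.19 without siCtrl 3. Over all tested genes it was 0.0051, 0.0064 and 0.0031. Without siCtrl 3, 5 of the 10 were called higher and 0 lower, against 3502 and 3665 of the 15948 genes tested in that fit. A gene that was not called is thus not shown to be unchanged. Scaling by library size alone moved calls over all genes from 3819 higher and 3798 lower to 5230 and 2494. The genes spread more among the control than among the knockdown libraries. The median coefficient of variation of the 10 genes was 16.7% within siCtrl and 3.87% within siDDX17, against 9.06% and 6.16% over all tested genes. Much of this spread rested on siCtrl 1: with siCtrl 2 and 3 only, the median was 6.15% for the 10 genes and 5.39% over all. The spread was not particular to these genes, since 15 ER chaperones had a median of 27.5% within siCtrl, or 8.31% with siCtrl 2 and 3 only.

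**Figure D1:**
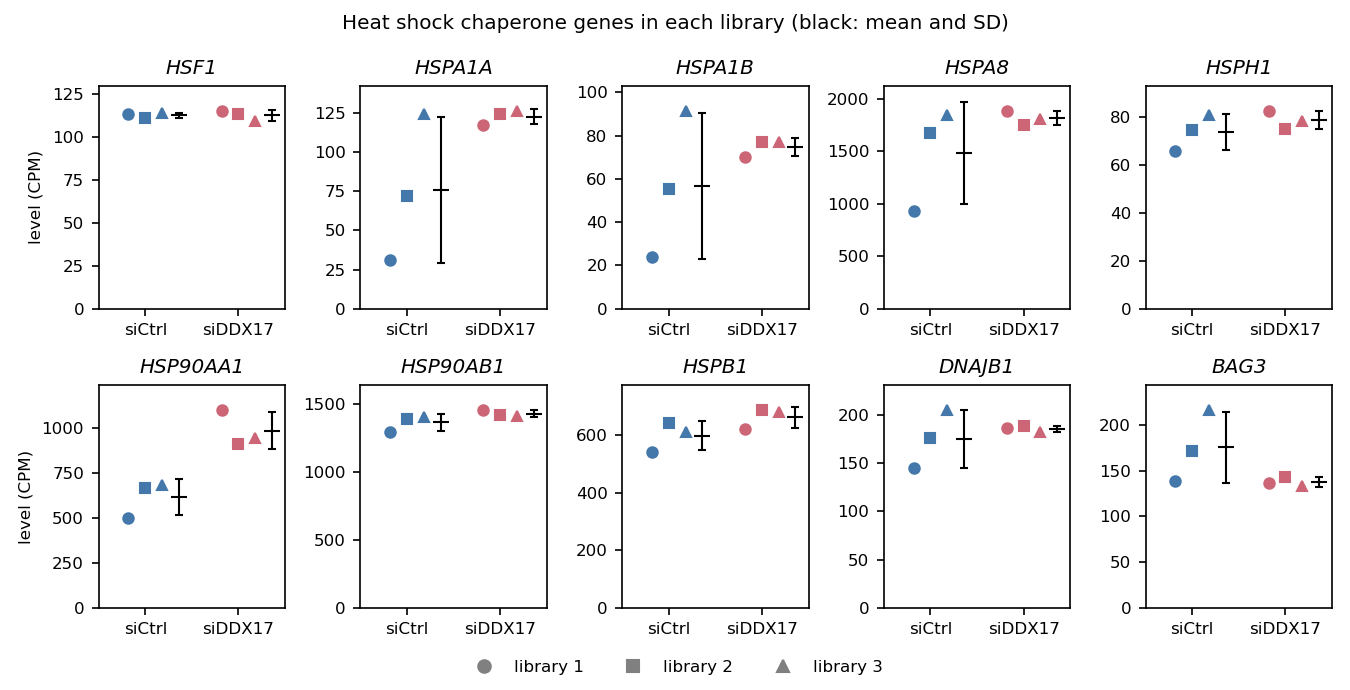
Level of the 10 heat shock genes in each library, in CPM on a linear axis from 0, with siCtrl in blue, siDDX17 in red, a symbol for each library number and the mean and SD of 3 libraries in black. The siDDX17 libraries lie close together, while HSPA1A spans 30.9 to 124 CPM and HSPA8 929 to 1845 CPM among the siCtrl libraries.

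HSF1 (ENSG00000185122.10, chromosome 8, 144291591 to 144314720), the transcription factor of the response, was at 113, 111 and 114 CPM in siCtrl 1, 2 and 3 and at 115, 113 and 109 CPM in siDDX17 1, 2 and 3. The groups overlapped and their means were equal to within the spread, 113 ± 1.53 and 112 ± 3.05 CPM (SD, n = 3). The fitted log2 fold change was -0.0012 with a standard error (SE) of 0.0529 (adjusted p = 0.987). It was -0.0091 without siCtrl 1 (adjusted p = 0.895). On FPKM values, whose groups did not overlap, limma gave 0.12 on log2(FPKM + 1) (adjusted p = 0.0474), where the median over all genes also shifted, by 0.061. HSF1 is activated by trimer formation and phosphorylation of the protein, which RNA levels do not measure.

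The inducible HSP70 genes showed the widest range. HSPA1A (ENSG00000204389.9, chromosome 6, 31815543 to 31817946, plus strand) was at 30.9, 72.0 and 124 CPM in siCtrl 1, 2 and 3, and at 117, 124 and 126 CPM in siDDX17 1, 2 and 3. The third control library thus lay within the range of the knockdown libraries, while siCtrl 3 exceeded siCtrl 1 by 4.03-fold. The log2 fold change of 0.69 (SE 0.310) did not pass the test (adjusted p = 0.0807), and it depended on which control library was kept: it was 0.30 without siCtrl 1 (adjusted p = 0.00950) but 1.26 without siCtrl 3 (adjusted p = 0.000231), and it passed in both cases. HSPA1B (ENSG00000204388.6, chromosome 6, 31827738 to 31830254, plus strand), its neighbour and near copy, was at 24.0, 55.1 and 91.5 CPM in siCtrl 1, 2 and 3. In siDDX17 1, 2 and 3 it was at 70.1, 77.1 and 77.0 CPM, above 2 control libraries and below the third. Its log2 fold change of 0.39 (SE 0.298, adjusted p = 0.30) was 0.01 without siCtrl 1 and 0.92 without siCtrl 3, where it passed (adjusted p = 0.00220).

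These 2 genes cannot be read apart with confidence. Of the 150-base windows of the HSPA1A-201 transcript 69.6% occur letter for letter in HSPA1B-201, and 66.1% the other way around, while HSPA1A shared none of its 50-base windows with HSPA8. The authors sequenced paired 150-base reads and counted those that mapped uniquely. Pairs that lie wholly within the shared stretches are therefore not expected in either count. How far this lowers the level per length of the 2 genes was not tested. The reads of both genes together numbered 1860, 3635 and 8089 in siCtrl 1, 2 and 3 and 7226, 7337 and 7838 in siDDX17 1, 2 and 3. When they were summed to 1 row before the test, the fitted difference was 0.57 on the log2 scale (SE 0.306, adjusted p = 0.141). In contrast to the levels, the ratio of the 2 genes differed little within a group. HSPA1A exceeded HSPA1B by a ratio of FPKM values, which are scaled for gene length and library size, of 1.30, 1.33 and 1.38 among the controls, against 1.70, 1.64 and 1.67 after knockdown. The groups did not overlap, and an exact two-sided permutation test gave p = 0.1, the smallest that 3 libraries against 3 allow.

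HSPA8 (ENSG00000109971.13, chromosome 11, 123057489 to 123063230, minus strand), the constitutive HSP70, followed the same order among the controls. It was at 929, 1677 and 1845 CPM in siCtrl 1, 2 and 3, and at 1888, 1755 and 1812 CPM in siDDX17 1, 2 and 3. Only siCtrl 1 lay far from the rest. The log2 fold change of 0.29 (SE 0.173, adjusted p = 0.181) was 0.04 without siCtrl 1 (adjusted p = 0.552) but 0.48 without siCtrl 3 (adjusted p = 0.0231). HSPH1 (ENSG00000120694.19, chromosome 13), an HSP110 protein that exchanges the nucleotide of HSP70, was at 65.8, 74.7 and 80.9 CPM in siCtrl and at 82.7, 75.0 and 78.4 CPM in siDDX17, with overlapping groups. Its log2 fold change of 0.09 (adjusted p = 0.317) was 0.0053 without siCtrl 1 (adjusted p = 0.946) but 0.16 without siCtrl 3 (adjusted p = 0.0877).

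**Figure D2:**
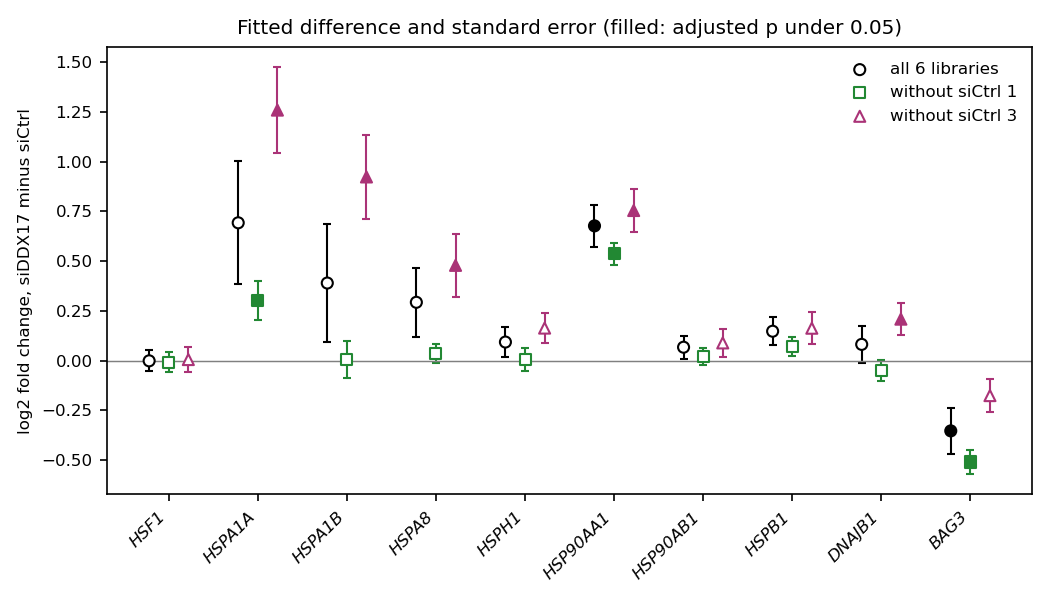
Fitted log2 fold change (siDDX17 minus siCtrl) of the 10 genes with its standard error, from all 6 libraries (circles), without siCtrl 1 (squares) and without siCtrl 3 (triangles), with filled symbols at an adjusted p under 0.05. HSP90AA1 is filled in all 3 fits, whereas HSPA1A moves from 0.30 without siCtrl 1 to 1.26 without siCtrl 3.

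HSP90AA1 (ENSG00000080824.18, chromosome 14, 102080742 to 102139699, minus strand), the inducible cytosolic HSP90, was the one gene of the 10 called higher. It was at 500, 666 and 681 CPM in siCtrl 1, 2 and 3 and at 1100, 909 and 944 CPM in siDDX17 1, 2 and 3, so that every knockdown library lay above every control library. The level rose 1.60-fold (log2 fold change 0.68, SE 0.105, adjusted p = 0.000139). The difference was 0.54 on the log2 scale without siCtrl 1 (adjusted p = 1.24e-10) and stayed between 0.54 and 0.81 over the 16 other settings, all of which called it. HSP90AB1 (ENSG00000096384.19, chromosome 6, 44246166 to 44253888, plus strand), the constitutive form, was at 1296, 1393 and 1410 CPM in siCtrl and at 1458, 1425 and 1411 CPM in siDDX17. These groups also did not overlap, though the fitted difference was 0.07 on the log2 scale (SE 0.0573, adjusted p = 0.354), or 0.020 without siCtrl 1 (adjusted p = 0.721). HSP90AB1 was called higher with scaling by library size alone (0.19, adjusted p = 0.00403) and with limma on log2(FPKM + 1) (0.20, adjusted p = 0.00728). In these settings the median over all genes also shifted, by 0.12 and 0.061. HSP90AA1 and HSP90AB1 were the 2 members without overlap, both higher, as were 28.8% of all tested genes. Per length, HSP90AA1 reached 0.286, 0.354 and 0.357 of the level of HSP90AB1 in siCtrl 1, 2 and 3 and 0.558, 0.472 and 0.495 in siDDX17 1, 2 and 3. This ratio, too, separated the groups (exact two-sided permutation test, p = 0.1, the smallest possible). The 2 transcripts shared none of their 50-base windows.

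**Figure D3:**
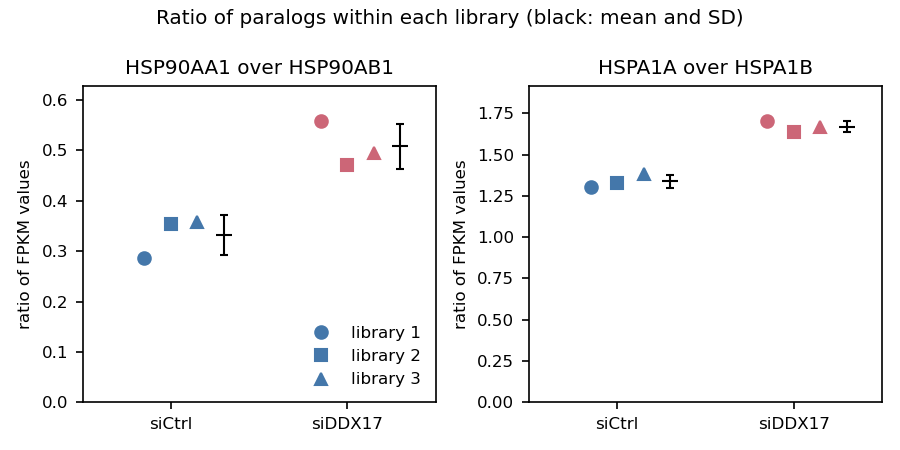
Ratio of the FPKM values of HSP90AA1 to HSP90AB1 (left) and of HSPA1A to HSPA1B (right) in each library, on axes from 0, with the mean and SD of 3 libraries in black. In both panels every siDDX17 library lies above every siCtrl library.

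BAG3 (ENSG00000151929.9, chromosome 10, 119651380 to 119677819, plus strand), an HSP70 exchange factor that directs clients to autophagy, was the one gene called lower. It was at 139, 171 and 216 CPM in siCtrl 1, 2 and 3, and at 136, 143 and 133 CPM in siDDX17 1, 2 and 3, where siCtrl 1 overlapped the knockdown libraries. The level fell by 0.35 on the log2 scale (SE 0.116, adjusted p = 0.0218). The call was lost in 8 of the 16 other settings, with DESeq2 (adjusted p = 0.113), without siCtrl 3 (log2 fold change -0.18, adjusted p = 0.0974) and without siDDX17 1, 2 or 3 (adjusted p = 0.0655, 0.0582 and 0.0830) among them. Without siCtrl 1 it was -0.51 (adjusted p = 5.15e-09).

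DNAJB1 (ENSG00000132002.7, chromosome 19, 14514769 to 14560391, minus strand), the J protein that HSF1 induces with HSPA1A, was at 145, 176 and 205 CPM in siCtrl and at 187, 188 and 182 CPM in siDDX17. The knockdown libraries lay between siCtrl 2 and siCtrl 3. Its log2 fold change of 0.08 (adjusted p = 0.503) was -0.05 without siCtrl 1 and 0.21 without siCtrl 3, where it passed (adjusted p = 0.0425). HSPB1 (ENSG00000106211.8, chromosome 7, 76302673 to 76304295, plus strand), the small heat shock protein that holds unfolded clients without ATP, was at 541, 640 and 611 CPM in siCtrl and at 620, 687 and 678 CPM in siDDX17, with a log2 fold change of 0.15 (SE 0.0698, adjusted p = 0.0972) that was 0.071 without siCtrl 1 (adjusted p = 0.214). Its groups overlapped at siCtrl 2 and siDDX17 1. HSPB1 was called higher in 5 of the 16 other settings, scaling by library size alone among them. In the annotation of GENCODE release 44, DNAJB1 overlaps TECR, and HSP90AA1 overlaps WDR20 for 197 bases, both on the opposite strand. HSPA1B overlaps a long noncoding RNA gene for 1421 bases on the same strand. HSPA8 overlaps the small RNA genes SNORD14C, SNORD14D and SNORD14E on the same strand. The effect of these overlaps on the counts, and on the ratio of HSPA1A to HSPA1B, was not tested. The libraries kept the strand, but its use in counting is not given in the sources used here.

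The order of the control libraries recurred over the genes. The lowest of the 3 control levels was in siCtrl 1 for 9 of 10 genes, as it was for 38.1% of all tested genes, and the highest was in siCtrl 3 for 9 of 10, against 30.3%. In 2 related lists the lowest control level was mostly in siCtrl 1 as well, for 13 of 14 genes of the TRiC chaperonin and prefoldin and for 12 of 16 HSP90 co-chaperones. The highest was in siCtrl 3 for only 3 of these 14 and 8 of these 16. Fewer were lowest in siCtrl 1 among J proteins (5 of 10), HSP70 exchange factors and adaptors (5 of 8) and mitochondrial genes (5 of 9). Among ER chaperones it was 0 of 15. These genes share libraries and are not independent. The fold from siCtrl 1 to siCtrl 3 was 4.03 for HSPA1A, 3.80 for HSPA1B, 1.99 for HSPA8, 1.56 for BAG3, 1.41 for DNAJB1 and 1.36 for HSP90AA1, and it was 1.01 for HSF1. Summed over the 10 genes, the siCtrl libraries 1, 2 and 3 held 3783, 5036 and 5380 CPM, against 5774, 5497 and 5552 CPM for siDDX17 1, 2 and 3. The ER chaperones had the opposite order. Their sum was highest in siCtrl 1 (6120 CPM), lower in siCtrl 2 and 3 (4324 and 3942 CPM) and between 5079 and 5109 CPM for the siDDX17 libraries, and 14 of 15 were highest in siCtrl 1 among the controls. HSPA5 (BiP), the HSP70 of the ER, was at 1180 CPM in siCtrl 1, 552 in siCtrl 2 and 448 in siCtrl 3, and between 575 and 600 CPM in siDDX17.

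**Figure D4:**
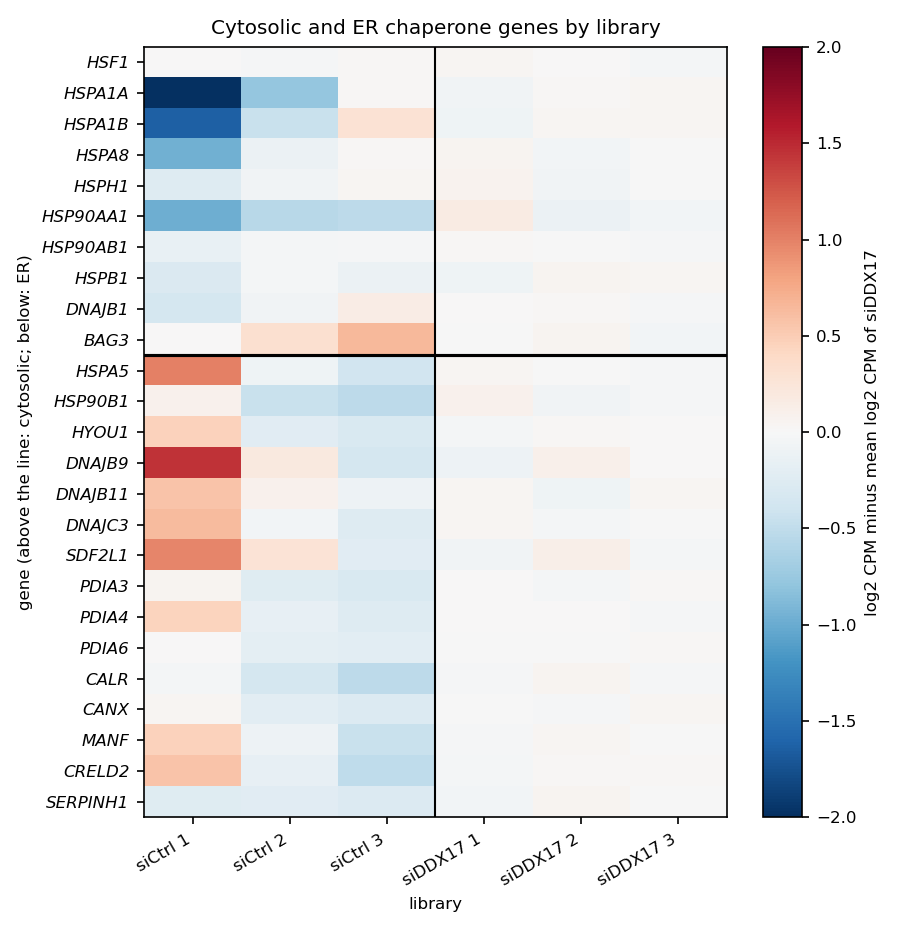
Level of the 10 cytosolic genes (above the line) and 15 ER chaperone genes (below) in each library, as log2 CPM minus the mean log2 CPM of the 3 siDDX17 libraries. In siCtrl 1 HSPA1A, HSPA1B and HSPA8 are below this mean and HSPA5, DNAJB9 and SDF2L1 above it, while the siDDX17 columns are near 0.

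With all 6 libraries, 2 of the 15 ER genes were called higher, SERPINH1, a collagen chaperone that HSF1 also induces (log2 fold change 0.25, adjusted p = 0.00201), and CALR, a lectin chaperone (0.29, adjusted p = 0.0247). Without siCtrl 1, 11 of the 15 were called higher, against 26.4% of all genes tested in that fit, and 2 of the 10 cytosolic genes, HSP90AA1 and HSPA1A. In the same fit BAG3 was the 1 cytosolic gene called lower, against 27.0% of all genes. HSPA5 was at a log2 fold change of -0.31 with siCtrl 1 (adjusted p = 0.320) and 0.22 without it (adjusted p = 0.000813), and HSP90B1, the HSP90 of the ER, was at 0.27 (adjusted p = 0.0774) and 0.48 (adjusted p = 1.14e-10). Without siCtrl 3 the ER genes called numbered 1 higher and 4 lower, against 3502 higher and 3665 lower of the 15948 genes tested in that fit. The call of CALR was lost without siCtrl 2 or 3 and without each siDDX17 library.

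Per length, which allows genes to be compared, HSPB1 had the highest mean among the 10 in siCtrl, 515 ± 33.4 FPKM, followed by HSPA8 at 502 ± 159 and HSP90AB1 at 420 ± 13.6 FPKM (SD, n = 3). HSPA8 ran from 322 to 627 FPKM and so overlapped both, while HSPB1 (477 to 540 FPKM) lay above HSP90AB1 (407 to 434 FPKM) in each control library. HSP90AA1 followed at 140 ± 20.7 FPKM, apart from its neighbours. DNAJB1 at 65.6 ± 10.8 and BAG3 at 62.4 ± 13.5 FPKM overlapped each other, and HSF1 lay below both at 46.2 ± 1.55 FPKM. HSPA1A (27.8 ± 17.2), HSPA1B (20.6 ± 12.2) and HSPH1 (11.9 ± 1.11 FPKM) closed the order, where HSPA1A reached up to HSF1 in siCtrl 3 and HSPA1B fell below HSPH1 in siCtrl 1. In siDDX17 HSPA8 (675 ± 29.1 FPKM) and HSPB1 (625 ± 33.8 FPKM) stood first, and HSPA1A at 49.5 ± 2.11 FPKM was level with HSF1 at 50.4 ± 1.12 FPKM. The values of HSPA1A and HSPA1B may be too low, since reads that fit both genes were not counted. How far this changes their place in the order was not tested.

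The heat shock elements of these genes are shown because they are the letters through which HSF1 acts. Windows of 300 bases, from 250 before to 50 after each annotated start, were taken from RefSeq (GRCh38.p14) and matched by symbol for 9 of the 10 genes. The promoter table used here held no window for HSF1, which was not analysed. A run of 3 inverted units, which is GAANNTTC followed by NNGAA or TTCNNGAA followed by NNTTC and so covers both strands, were found for HSP90AA1, HSPA8 and HSP90AB1, 3 of 9 genes, and for 0.608% of the 27305 genes with a window. A pair of repeats (GAANNTTC or TTCNNGAA, which lies inside the longer motif) was found for 7 of 9 genes, all but BAG3 and HSPH1, and for 16.2% of all genes. The motif is in capitals with 8 bases on each side, each written 5′ to 3′ on the strand of the gene. The number after the name gives how far the first capital lies before the start site.
HSP90AA1, 88 bases, chr14:102087112-102087140, minus strand: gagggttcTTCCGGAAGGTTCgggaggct
HSPA8, 55 bases, chr11:123062171-123062199, minus strand: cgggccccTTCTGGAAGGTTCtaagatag
HSPA8, 230 bases, chr11:123062346-123062374, minus strand: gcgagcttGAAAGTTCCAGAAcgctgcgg
HSP90AB1, 112 bases, chr6:44247823-44247851, plus strand: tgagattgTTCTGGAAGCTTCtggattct
HSP90AB1, 165 bases, chr6:44247770-44247798, plus strand: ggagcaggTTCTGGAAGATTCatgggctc
HSP90AB1 has 3 annotated starts and HSP90AA1 has 2 in the table, and the longer motif was found at 1 start of each. Of the 3 genes with the longer motif, HSP90AA1 was called higher, and HSPA8 and HSP90AB1 did not pass the test. A match describes these letters and not a bound site, and the absence of one says only that the letters are not in this window.

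The wider chaperone network was described with 9 further lists of genes, which hold the co-chaperones, relatives and organelle counterparts of the 10. Their counts are to be read beside the 24.5% of all tested genes called higher and the 24.3% called lower, and none was tested against them. Of 6 other cytosolic HSP70 and HSP110 genes, HSPA4, an HSP110 relative, was called higher (log2 fold change 0.17, adjusted p = 0.0430, or 0.10 and 0.0814 without siCtrl 1) and HSPA14, a ribosome-bound HSP70, was called lower (-0.59, adjusted p = 4.33e-05). The call of HSPA4 was also lost with RLE scaling, with DESeq2 and with the replicate number as a block. HSPA6, which is silent in most unstressed cells and strongly induced by heat, was between 0.439 and 0.854 CPM in all 6 libraries (adjusted p = 0.221). Among the HSF1 relatives and regulators, 1 of 4 was called, HSBP1L1, which fell from 15.9 ± 0.341 to 10.8 ± 0.413 CPM (SD, n = 3). HSF2 was between 4.40 and 6.41 CPM in all libraries (adjusted p = 0.196, and 0.00467 without siCtrl 1 with a log2 fold change of 0.43).

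Among the HSP90 co-chaperones 5 of 16 were called higher and 5 of 16 lower, beside 24.5% and 24.3% of all tested genes. FKBP5, an immunophilin that dampens steroid receptors and that glucocorticoids induce, rose 2.05-fold from 40.1 ± 2.89 to 82.4 ± 4.66 CPM (SD, n = 3; adjusted p = 6.77e-08). AHSA1, the activator of the HSP90 ATPase, rose 1.65-fold (139.5 ± 24.5 to 229.7 ± 3.64 CPM, adjusted p = 4.96e-05), and NUDC rose 1.60-fold (adjusted p = 3.37e-06). In contrast, FKBP4, the immunophilin that assists steroid receptors, fell from 214 ± 35.0 to 148 ± 5.87 CPM (log2 fold change -0.54, adjusted p = 0.000403), and PPP5C, a phosphatase bound to HSP90, and CDC37L1 were lower by smaller amounts (log2 fold changes of -0.31 and -0.30). The number called higher was 5 in every fit that left out 1 library. The number called lower was 5 without siCtrl 1, 3 without siCtrl 2, siCtrl 3 or siDDX17 1, and 2 without siDDX17 2 or 3.

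The HSP70 exchange factors and adaptors had 2 of 8 called higher, near the share over all genes (24.5%), and 4 of 8 lower (24.3%). ST13 (HIP), which stabilizes the client-bound state of HSP70, rose 1.62-fold from 129 ± 3.54 to 210 ± 5.41 CPM (adjusted p = 2.92e-07), and BAG1 was higher by 0.19 on the log2 scale. BAG6, which guards hydrophobic tails of new proteins, fell by 0.50 on the log2 scale (adjusted p = 1.49e-05) and HSPBP1 by 0.23. Without siCtrl 2 the number called lower was 1, and it was 2 without siCtrl 3, siDDX17 1 or siDDX17 3. The number called higher was 1 without siDDX17 1 or 3. Of 10 J proteins tested 3 were called higher and 4 lower (24.5% and 24.3% over all genes). DNAJA2 (0.47), DNAJA1 (0.39) and DNAJB4 (0.36) rose, and DNAJC2 (-0.38), DNAJB5 (-0.35) and DNAJC9 (-0.31) were the largest decreases in log2 fold change. DNAJA1 was at 145, 231 and 246 CPM in siCtrl 1, 2 and 3, the order seen for HSPA8, and its difference was 0.18 without siCtrl 1. Of 2 small heat shock proteins tested, HSPB8 was called higher (0.22, adjusted p = 0.0215).

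For the TRiC chaperonin, which folds actin and tubulin, and prefoldin, which delivers them to it, 2 of 14 genes were called higher and 4 lower (24.5% and 24.3% over all genes). CCT5 rose 1.50-fold (adjusted p = 5.08e-05) and CCT6A 1.20-fold (adjusted p = 0.00485), while CCT7 (log2 fold change -0.34), the prefoldin subunits VBP1 (-0.79) and PFDN5 (-0.33) fell. Without siCtrl 1 the number called lower was 7, against 27.0% of all genes tested in that fit. Of 9 mitochondrial chaperones and proteases 3 were called higher and 2 lower (24.5% and 24.3% over all genes). LONP1, a matrix protease, rose 2.24-fold from 72.6 ± 2.75 to 163 ± 5.58 CPM, the largest change among the tested genes of these 9 lists (adjusted p = 6.06e-09), and HSPD1, the mitochondrial HSP60, rose 1.78-fold, from 403 to 489 CPM in siCtrl to 758 to 853 CPM in siDDX17 (adjusted p = 1.14e-06). HSPA9 was higher by 0.19, and the proteases CLPP and CLPX were lower by log2 fold changes of -0.23 and -0.19.

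Of the 32 genes of these lists that were named because they were called, 21 were called in every fit that left out 1 library and 11 were not. The calls lost were those of HSPA4, DNAJB5 and CDC37L1 without siCtrl 1 (adjusted p of 0.0506 to 0.0814), and of HSPA4, HSPBP1, HSPB8, HSPA9 and CALR without siCtrl 2 (0.0504 to 0.104). Without siCtrl 3 they were those of HSPBP1, HSPA9, CLPX and CALR (0.0528 to 0.110). Without siDDX17 1 the calls of HSPA4, DNAJA1, DNAJB5, BAG1, HSPA9 and CALR were lost (0.0576 to 0.168), and without siDDX17 2 those of DNAJA1, DNAJB5, CDC37L1, HSPB8, CLPX and CALR (0.0668 to 0.144). Without siDDX17 3 it was 10 of the 11, DNAJB5 being the exception (0.0527 to 0.145). Calls were also gained: 3 of the 6 other HSP70 and HSP110 genes were higher without siCtrl 3 and 2 without siDDX17 2. Of the 4 HSF1 relatives and regulators, 2 were lower without siCtrl 1, the regulators HSBP1L1 and HSBP1 (log2 fold changes of -0.59 and -0.13). The number of HSF1 relatives and regulators called higher was 1 without siCtrl 1, siCtrl 2 or siDDX17 3. Without siCtrl 2, 3 genes of the chaperonin and prefoldin were higher. Over all genes, the fits that left out 1 library called 3189 to 4220 higher and 3101 to 4312 lower, of 15837 to 15996 tested.

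The genes most like each member were sought among the other members and the lists, 93 genes in all, by the Euclidean distance between log2 CPM values centred over the 6 libraries. HSPA1A and HSPA1B were nearest to each other (distance 0.398). DNAJA1 was nearest to HSPA8 (0.194), CCT5 to HSP90AA1 (0.191), PTGES3, the HSP90 co-chaperone p23, to HSP90AB1 (0.0417) and HSPA6 to BAG3 (0.247). HSPA6 had only 16 to 32 reads in each library, so its values are uncertain and its place beside BAG3 is weak. HSPH1 was nearest to DNAJB1 (0.182). DNAJA3 was nearest to HSF1 (0.134), PPID to HSPH1 (0.115) and CCT3 to HSPB1 (0.138). These distances describe 6 libraries in 2 groups and carry no test.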

How the data were processed

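Stranded poly(A) RNA-seq of 6 A549 cultures (3 siCtrl, 3 siDDX17) was analysed. Adaptors and low-quality ends were removed by the authors, TopHat2 was used for mapping to GRCh38, and raw counts of uniquely mapped reads per gene were deposited. They also deposited FPKM values per gene, scaled for length and library size. The counting program and annotation release are not given in the sources used here. Groups and replicate numbers were taken from the sample titles, and p-values measure the spread between these libraries.

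Counts were tested with edgeR 4.0.16 (R 4.3.3), using TMM scaling, filterByExpr (15615 of 29476 genes kept), glmQLFit and glmQLFTest, and Benjamini-Hochberg adjustment over all tested genes. The call limit was an adjusted p of 0.05. The low-count filter sets which genes share the adjustment and enter the variance estimate, and the scaling sets the zero of the fold change. With no low-count filter the log2 fold change of HSPA1A stayed at 0.69, while its SE went from 0.310 to 0.0671. The cause of this change was not tested. Alternatives were RLE, upper quartile and no scaling beyond library size, DESeq2 1.42.0, other filters, the replicate block, limma 3.58.1 on log2(FPKM + 1) and log2(FPKM + 0.1) for genes with a mean of at least 0.1 FPKM, limits on the fold change, HSPA1A and HSPA1B summed, and each library left out. Single values were compared with exact permutation tests (scipy 1.17.1). The test was checked on simulated counts for siDDX17 against siCtrl (15434 genes), where it called 87 of 100 genes changed 2-fold, 77 of 100 changed 1.5-fold and 10 unchanged genes. These rates do not give the power for genes with a wide spread among the controls, such as HSPA1A (coefficient of variation 61.9% within siCtrl). For such genes it was not tested. Positions are those of GENCODE release 44 on GRCh38, and promoter letters those of RefSeq.

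The members and lists were chosen with earlier results of these data known. The genes named are the 10 members, DDX17, for each further list up to 3 genes per direction with the largest fold change among called genes without overlap between the groups and any gene with an absolute log2 fold change over 1, and the nearest gene of each member. HSF2, HSBP1, HSPA5, HSP90B1, DNAJB9 and SDF2L1 were named after their values were seen, and the spread among siCtrl 2 and 3 only was added after seeing the data.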

Additional observations from a re-analysis of the deposited data

How the results depend on the processing

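The number of the 10 genes called higher was 1 with all libraries, 4 with scaling by library size alone and in both limma fits on FPKM values, 5 with no low-count filter, 3 with the replicate block, 0 with an absolute log2 fold change over 1, and 1 to 5 when each library was left out, 2 without siCtrl 1 and 5 without siCtrl 3. The number called lower was 1 with all libraries, 0 with size scaling, DESeq2, both limma fits and either limit on the fold change, and 0 to 1 when each library was left out. Over all genes, 3502 of 15948 were called higher without siCtrl 3 and 4220 of 15996 without siCtrl 1. With no low-count filter 3920 of 29476 were higher, and with the replicate block 3743 of 15615. Called lower over all genes were 3628 of 15615 with DESeq2, 3665 of 15948 without siCtrl 3 and 3101 of 15837 without siDDX17 3. The median over all genes shifted by 0.12 on the log2 scale with size scaling and by 0.12 on log2(FPKM + 0.1), and calls over all genes went from 3819 higher and 3798 lower to 5230 and 2494 with size scaling and to 4892 and 2269 on log2(FPKM + 1). In the same 2 settings the ER genes called higher numbered 6 and 4 instead of 2, the HSP90 co-chaperones 8 and 7 instead of 5, and the mitochondrial genes 6 instead of 3, while co-chaperones called lower numbered 2 instead of 5 and exchange factors 1 instead of 4. HSF1, at a log2 fold change of -0.0012, turned to 0.030 with upper quartile scaling, 0.12 with size scaling, 0.011 with at least 10 counts in every library, 0.12 on log2(FPKM + 1) and 0.13 on log2(FPKM + 0.1), both of which passed the test (adjusted p = 0.0474 and 0.0483), and -0.021 to 0.020 when each library was left out. DNAJB1 ran from -0.050 to 0.21 when each library was left out. The direction of the other 8 genes was the same under every setting tried. The cause of these changes was not tested. Same-numbered siCtrl and siDDX17 libraries correlated at 0.0070, 0.0407 and -0.0564 in their deviations from the group means. With so few libraries these values cannot decide whether a number marks a shared day or batch, and the labels name none. With the replicate block HSPA1A (log2 fold change 0.88) and HSPB1 (0.15) were called as well. The members had at least 814 reads in each library. Whether depth or the spread between the libraries limits these values was not tested.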
